A study of Mus musculus with 3 samples.

Results

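The cells described here are day 7 cells of an in vitro Leydig differentiation culture that carried Star transcripts but no transcript of the steroid enzymes downstream of it. They were selected on measured values: a cell had to hold at least 2 Star unique molecular identifiers (UMIs, each standing for 1 captured transcript) and 0 UMIs of Cyp11a1, Hsd3b1 and Cyp17a1. The rule found 573 of the 2171 day 7 cells, or 26.4% (exact 95% Clopper-Pearson interval 24.5 to 28.3), among 6124 cells of days 4, 7 and 14. They are called Star-positive, enzyme-negative cells below. The comparison group was the 1148 day 7 cells (52.9%) with 0 UMIs of all 4 genes. A further 396 cells held 1 Star UMI without an enzyme, just outside the rule, and 54 cells held an enzyme UMI.

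The series followed testis cells of adult C57BL/6 mice, 8 to 12 weeks old, that had been sorted as Sca1+/cKit- and plated on Matrigel at 100000 cells per well. After 18 hours of recovery, all cultures grew for 3 days in expansion medium with PdgfAA, PdgfBB and Fgf2 (10 ng/ml each) and the hedgehog agonist SAG (0.5 uM). The day 7 and day 14 cultures then received the same factors with 5 mM LiCl2 and 10 uM of DAPT, an inhibitor of Notch cleavage, for 3 and 10 days. Each day is 1 Drop-seq library, so cells are not replicates, no test was possible, and every interval covers counting error only. Day and library cannot be told apart. The number of mice behind each library is not given in the sources used here.

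Leydig cells make testosterone from cholesterol. Star carries cholesterol to the inner mitochondrial membrane, where Cyp11a1 cuts its side chain with electrons passed on by Fdxr and Fdx1. Hsd3b1 and Cyp17a1 then convert pregnenolone towards androgens. In adult Leydig cells, luteinizing hormone acting on Lhcgr raises Star through cyclic AMP, and the nuclear receptor Nr5a1 binds the promoters of Star and of the enzymes alike.

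Of the 573 cells, 188 held exactly 2 Star UMIs, 106 held 3, 68 held 4, 131 held 5 to 9 and 80 held 10 or more. The median was 3 Star UMIs and the highest cell held 86. The 80 cells with 10 or more carried 46.9% of the group's 3420 Star UMIs. As a share of each cell's own RNA, Star ranged from 66.0 to 3984 counts per 1000000 UMIs (CPM), with a median of 586. Summed over the group Star was at 637 CPM (exact Poisson interval 616 to 658), against 1605 CPM (1448 to 1775) in the 35 cells that had both an enzyme UMI and at least 2 Star UMIs. These values describe the rule and are no finding. In the reference annotation of GRCm38 (GENCODE M21) Star lies at chr8:25806555-25815982 on the plus strand.

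Cells that met the rule were deeper than the rest. The median depth was 7961 UMIs in Star-positive, enzyme-negative cells, 3165 in cells with 1 Star UMI and 2227 in cells without any of the 4 genes. From the shallowest cells, under 1000 UMIs, to the deepest, at 16000 and more, the share that met the rule went from 4.00% to 79.1%. Over the same bins the Star level of all cells without an enzyme was 289, 243, 276, 284 and 316 CPM below 16000 UMIs, and 511 CPM (482 to 541) above. Below 16000 UMIs the level therefore differed little with depth while the share of cells passing a count of 2 climbed. The plot of Star UMIs against depth shows both groups side by side.

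**Figure D1:**
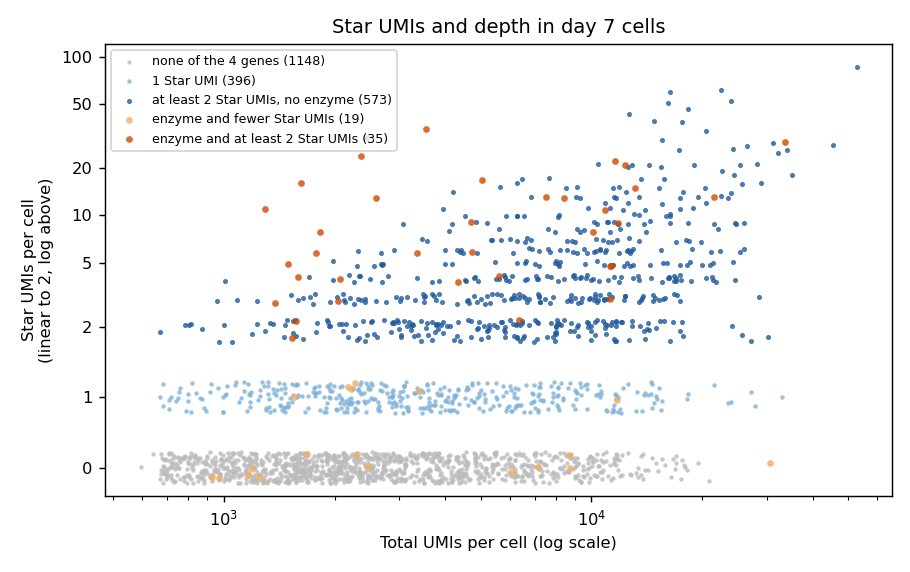
Star UMIs per cell (vertical axis, linear up to 2 and logarithmic above, with small random shifts for visibility) against total UMIs per cell (horizontal log axis) for the 2171 day 7 cells, coloured by class. The 573 Star-positive, enzyme-negative cells lie mostly to the right of the 1148 grey cells, and the 54 cells with an enzyme UMI are spread over the whole depth range.

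Star transcripts were also found in barcodes that were not counted as cells. The 229 barcodes of the day 7 library that failed the cell filter (500 genes, 10% mitochondrial UMIs) held 35 Star UMIs among 119706, a level of 292 CPM (204 to 407). The same barcodes held 0 UMIs of Cyp11a1, Hsd3b1, Cyp17a1 and Insl3, which allows each up to 30.8 CPM. The 35 cells with an enzyme UMI and at least 2 Star UMIs carried 382 Star UMIs beside 555 Cyp11a1 UMIs. All day 7 cells together held 362 CPM of Star (351 to 373). Of the 229 barcodes 28 had 500 or more genes. Whether the Star UMIs of the failed barcodes came from free RNA or from small or damaged cells was not tested, nor was the part of free RNA in the Star UMIs of the selected cells.

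Barcodes were not all independent cells. In the day 7 library 1026 of 2171 barcodes (47.3%) shared their first 11 of 12 bases with another barcode, mostly in sets of 4, and such barcodes were shallow, with a median of 1951 UMIs against 6464 for the others. They made up 26.5% of the Star-positive, enzyme-negative cells and 57.8% of cells without the 4 genes. After matching on depth the shares were 34.0% and 34.7%. Among the 85 sets with at least 1 Star-positive, enzyme-negative barcode, 57 also held a barcode without any of the 4 genes. Whether such barcodes are 1 cell was not tested, and the comparison below is also given without them. The 3 libraries shared 0 barcodes with each other.

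Each Star-positive, enzyme-negative cell was paired with 1 control cell without the 4 genes whose total UMIs lay within a ratio of 1.1. This gave 424 pairs with medians of 6004.5 and 5568.5 UMIs, 1.36% and 1.33% mitochondrial UMIs, and 2489.5 and 2439.5 genes per cell. The remaining 149 cells, with a median of 15679 UMIs, were too deep to find a control and entered no ratio. Of 6185 genes averaging at least 20 CPM over both groups, 37 (0.598%) were at least 1.5-fold higher in the Star-positive cells and 157 (2.54%) at least 1.5-fold lower, with a pseudocount of 10 CPM. The median log2 ratio over all 6185 genes was -0.01.

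The lowest ratios were those of mitotic genes. All 22 genes of the G2/M list were lower by more than 1.5-fold, with a median log2 ratio of -1.63, and their summed level was 688 CPM in Star-positive cells against 2595 CPM in controls (ratio 0.265, 0.252 to 0.279). The 12 genes with the lowest ratios were Mki67, Kif23, Prc1, Cenpf, Cdc20, Kif20b, Ube2c, Ckap2l, Birc5, Cenpa, Cdca8 and Top2a, which are all known to act in dividing cells. Mki67, the standard proliferation marker, stood at 49.0 CPM (139 UMIs) against 207 CPM (549 UMIs), a ratio of 0.237 (0.196 to 0.287). Cdc20, which activates the anaphase-promoting complex, was at 28.6 against 127 CPM (ratio 0.225, 0.174 to 0.287). Ube2c, the ubiquitin-conjugating enzyme of that complex, was at 46.2 against 186 CPM (ratio 0.249, 0.204 to 0.303).

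Genes of DNA replication went the same way by less. Of 16 S phase genes counted, 8 were past 1.5-fold lower and 0 higher, with a median log2 ratio of -0.57, and all 16 lay below 0. The S and G2/M lists together account for 30 of the 157 lower genes. Per cell, 39 of 424 Star-positive cells (9.20%, 6.62 to 12.4) held 10 or more G2/M UMIs, against 111 of 424 controls (26.2%, 22.1 to 30.6). Mitotic cells were thus present in both groups and fewer among the Star-positive ones.

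The promoters of the mitotic genes are shown because these genes were lower together. TTTGAA, the core of the cell cycle genes homology region, and CCAAT, the box bound by NF-Y, were searched on both strands from 250 bases before to 50 bases after each RefSeq start (GRCm38.p6). TTTGAA occurred in 11 of the 12 lowest genes, all but Birc5, and in 20.2% of 27025 genes in the table. CCAAT occurred in 10 of the 12, against 41.1% of all genes. Of the 12 genes with the highest ratios 8 were in the table, and TTTGAA occurred in 1 of them (Spp1, at its second start) and CCAAT in 4. The last 70 bases before the start are printed for 4 mitotic genes and for Spp1, with TTTGAA (or TTCAAA) and CCAAT (or ATTGG) in capitals; the 2 motifs do not overlap here.
Cdc20, chr4:118437344-118437413, minus strand: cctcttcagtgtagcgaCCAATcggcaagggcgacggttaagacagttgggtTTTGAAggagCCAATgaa
Prc1, chr7:80294406-80294475, plus strand: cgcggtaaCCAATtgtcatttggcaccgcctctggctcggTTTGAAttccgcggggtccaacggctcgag
Ube2c, chr2:164769859-164769928, plus strand: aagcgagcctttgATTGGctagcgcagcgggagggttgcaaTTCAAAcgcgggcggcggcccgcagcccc
Top2a, chr11:99024190-99024259, minus strand: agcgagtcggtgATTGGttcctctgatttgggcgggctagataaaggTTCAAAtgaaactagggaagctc
Spp1, chr5:104435041-104435110, plus strand: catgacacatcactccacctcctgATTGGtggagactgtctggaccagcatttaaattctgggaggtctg
In these 4 mitotic genes TTTGAA begins 30, 29, 23 and 18 bases before the start (Prc1, Ube2c, Top2a and Cdc20), with a CCAAT box further upstream at 62, 57, 58 and 53 bases. Prc1 is shown from its second start. From its first start the same motifs begin 5 and 37 bases before. The 4 genes were picked for printing, and most other lowest genes differed. TTTGAA began only after the start in Kif23, Cenpf, Kif20b, Cdca8 and Cenpa, first at base 3, 3, 8, 14 and 17. It began 30 bases before the start in Ckap2l, and 98 and 116 bases before in Mki67. Kif20b had no CCAAT. The Spp1 window holds a CCAAT box but no TTTGAA. A match is a description of letters and not a measured binding site.

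Spp1 and Ccl2 had the highest log2 ratios with the pseudocount of 10 CPM among the genes named by the rule, both at 1.02. Without the pseudocount Serpinb9b, at a ratio of 2.06, lay between them. Spp1, the matrix phosphoprotein osteopontin, was at 9376 CPM (26573 UMIs) against 4631 CPM (12310 UMIs), a ratio of 2.02 (1.98 to 2.07). The median Star-positive cell carried 5587 CPM of Spp1 and the median control 2079, with middle ranges of 1519 to 15757 and 538 to 6083 CPM, so the cells of both groups overlapped widely. Ccl2, a chemokine that attracts monocytes, was at 420 against 202 CPM (ratio 2.08, 1.87 to 2.31) and was seen in 42.7% of Star-positive cells and 29.5% of controls. Timp1, an inhibitor of matrix metalloproteinases, was at 13014 against 8495 CPM (ratio 1.53, 1.51 to 1.56). Per cell its middle range was 7252 to 18355 CPM in Star-positive cells and 3973 to 11323 in controls.

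The other genes with the 12 highest ratios have varied roles. Angptl4, a secreted inhibitor of lipoprotein lipase, was at 175 against 86.5 CPM (ratio 2.02, 1.73 to 2.38). Lipg, endothelial lipase, was at 316 against 177 CPM (ratio 1.78) and was seen in 66.5% of Star-positive cells and 45.3% of controls. Gadd45a, a stress-induced gene linked to growth arrest, was at 188 against 105 CPM (ratio 1.79, 1.54 to 2.08). Serpinb9b, a serine protease inhibitor, reached a ratio of 2.06 (1.73 to 2.45), and Nes, the intermediate filament nestin, a ratio of 1.88 (1.52 to 2.34). Rnf149, Bhlhe41, Mmd, Hist1h2bc and Gna14 completed the 12, with log2 ratios from 0.69 for Hist1h2bc and Gna14 to 0.86 for Rnf149. No cell supplied over 5.88% of the UMIs of any of these 12 genes in the Star-positive group.

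Among the 37 higher genes were others of the same kinds, named here after their values were seen. The chemokine Ccl7 (72.3 against 42.1 CPM), the prostaglandin synthase Ptgs2 (75.9 against 44.8 CPM), the semaphorin Sema7a (68.1 against 31.6 CPM), the stress-response regulator Nupr1 (1416 against 922 CPM) and galectin-3, Lgals3 (155 against 99.3 CPM), were each past 1.5-fold. Igfbp5, Grem1 and Cck were past it too, but 1 cell held 38.8%, 11.4% and 11.3% of their UMIs in the Star-positive group.

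**Figure D2:**
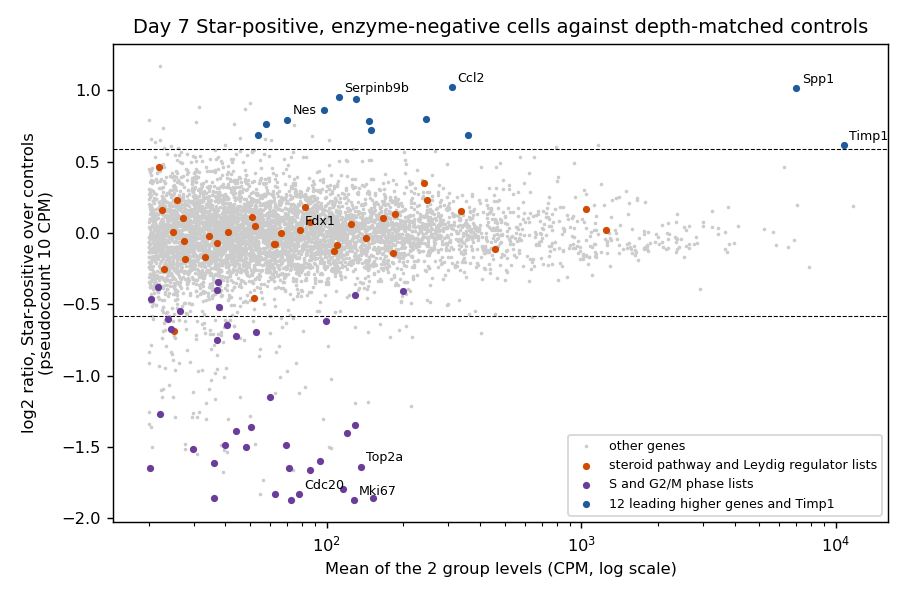
Log2 ratio of Star-positive, enzyme-negative cells over depth-matched controls (vertical axis, pseudocount 10 CPM) against the mean level of the gene (horizontal log axis, CPM) for the 6185 genes counted, with dashed lines at 1.5-fold. The S and G2/M genes fall below 0, Spp1, Ccl2 and Timp1 stand at the top or right, and the steroid pathway and Leydig regulator genes lie between the lines apart from Tcf21 below the lower one.

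Few genes of any kind were past 1.5-fold (0.598% higher and 2.54% lower), so that counts of 0 in short lists are no result about the list, and the levels of single genes are given instead. Of 13 steroid partner genes counted, 0 were past 1.5-fold in either direction, and their median log2 ratio was 0.02. The list holds, among others, electron carriers and proteins of cholesterol import at the mitochondrion and of its outer membrane. Fdx1, the electron donor of Cyp11a1, was at 79.0 against 77.9 CPM (ratio 1.01, 0.836 to 1.23). Its ratio was 1.45 (1.00 to 2.11) in pairs below the median depth and 0.881 (0.699 to 1.11) in the deeper pairs. Its reductase Fdxr was at 28.6 against 22.9 CPM (ratio 1.25, 0.882 to 1.77). Tspo, a cholesterol-binding protein of the outer mitochondrial membrane, was at 440 against 477 CPM (ratio 0.923, 0.853 to 0.999). The others were Acbd3, Atad3a, Cyb5a, Cyb5b, Cyb5r3, Dbi, Nsdhl, Opa1, Por and Vdac1, between log2 -0.14 for Vdac1 and 0.23 for Cyb5a. Mfn2 and Stard3 averaged under 20 CPM and were at log2 -0.13 and -0.21.

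Among 6 late steroid genes counted, 0 were past 1.5-fold. Akr1cl was the highest of them at 271 against 211 CPM (ratio 1.29, 1.15 to 1.44), followed by Hsd17b12 (354 against 318 CPM), and Hsd17b7, Hsd17b4, Hsd17b11 and Srd5a3 lay between log2 -0.18 and 0.08. Insl3, a peptide hormone of mature Leydig cells, had 6 UMIs in the paired Star-positive cells and 1 in controls. Hsd17b3, the testicular 17-ketosteroid reductase, had 1 UMI in each group, and Hsd3b6, Cyp19a1 and Sult1e1 had 0 in both. Akr1c14, Hsd11b1, Hsd17b1 and Srd5a1 were under 20 CPM. Lhcgr, the luteinizing hormone receptor, had 0 UMIs in all 573 Star-positive, enzyme-negative cells. With 3 divided by the number of cells as an approximate limit, up to 0.524% of cells could hold a UMI. Of the 9 receptors counted 0 were past 1.5-fold, with Fgfr1 (142 against 97.4 CPM) and Ghr (98.1 against 72.6 CPM) highest.

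Among regulators of the lineage 1 gene was past 1.5-fold. Nr5a1, the steroidogenic nuclear receptor, was at 18.4 against 16.2 CPM (52 and 43 UMIs, log2 ratio 0.11, interval of the ratio 0.743 to 1.74) and averaged just under 20 CPM. Of 16 other regulators counted only Tcf21, a mesenchymal progenitor factor, was past 1.5-fold, at 16.9 against 33.5 CPM (ratio 0.506, 0.348 to 0.726). Zfpm2, a Gata cofactor, had the highest ratio at log2 0.46. Cebpb, Creb1, Creb3l1, Fosl2, Jun, Lhx9, Maf, Nr2f2, Nr3c1, Sp1, Srebf1 and Srebf2 were between log2 -0.26 and 0.14. Below 20 CPM, Gata4 had 66 and 40 UMIs, Crem 34 and 32, Nr2f1 24 and 20, Nr4a1 14 and 16, Esr1 10 and 12, Gata6 8 and 8, Nr4a2 4 and 4, Wt1 4 and 6, and Nr4a3 1 and 6, while Nr0b1, Nr0b2 and Nr5a2 had 0 in both. With Insl3 and Lhcgr at or near 0 and Nr5a1 within counting error of the controls, the cells are named by the rule and given no cell type name.

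Cells with an enzyme looked different. In the 35 day 7 cells with an enzyme UMI and at least 2 Star UMIs, Fdx1 was at 908 CPM (791 to 1037), Nr5a1 at 75.6 CPM (44.8 to 120), Insl3 at 261 CPM (200 to 334) and Lhcgr at 29.4 CPM (11.8 to 60.6). In the 573 Star-positive, enzyme-negative cells the same genes were at 77.6 CPM (70.4 to 85.5), 19.6 CPM (105 UMIs), 1.30 CPM (0.524 to 2.69) and 0 CPM (up to 0.687). The enzyme cells were few, and the 10 with most Cyp11a1 UMIs held 64.1% of them. Because an absence of enzyme UMIs is part of the rule, differences in genes that accompany the enzymes are partly set by it.

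Of 22 cholesterol synthesis genes, 0 were past 1.5-fold, near the share of all genes, and the median log2 ratio was -0.09, with Msmo1 at 502 against 443 CPM and Cyp51, the lanosterol demethylase, at 472 against 458 CPM. Of 19 uptake and transport genes 0 were past it (median 0.02), and Npc2, the lysosomal cholesterol carrier, was at 1796 against 1517 CPM. The 31 lysosomal genes counted had 0 past 1.5-fold and a median of 0.20, with 29 above 0, among them Ctsd (1029 against 862 CPM) and Ctsl (1202 against 1048 CPM).

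Stromal gene groups differed in direction. In the list that the study drew from its extracellular matrix myofibroblast cluster, chosen on these same libraries and so not independent evidence, 5 of 55 genes were past 1.5-fold higher and 0 lower: Angptl4, Gadd45a, Mmd, Nupr1 and Chchd10. Over all genes the shares were 0.598% higher and 2.54% lower. None of these 5 is a matrix protein. The matrix members were closer to 1, such as Lox, which crosslinks collagen, at 1915 against 1647 CPM, and Fbln2 at 1340 against 1052 CPM. Postn, which the paper names for this cluster, was at 466 against 477 CPM (ratio 0.976, 0.903 to 1.06). The median log2 ratio of the list was 0.15, with 41 genes above 0 and 14 below. Of 19 collagen genes and their processing enzymes 0 were past 1.5-fold (median -0.05), with Col1a2 at 5262 against 5165 CPM and Col3a1 at 3524 against 3812 CPM. Of 20 contractile genes 0 were past it (median -0.11), 17 lay below 0, and Acta2, smooth muscle actin, was lowest at 2525 against 3316 CPM (ratio 0.761, 0.738 to 0.786).

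Lower calls were also found among elastic fibre and progenitor genes. Eln, elastin, had 127 against 226 UMIs (ratio 0.527, 0.421 to 0.658). Its partner Mfap2 was at 52.2 against 86.1 CPM, and these were the 2 lower of 13 elastic fibre genes counted. The elastic fibre list as a whole was not lower. Its median log2 ratio was 0.12, with 7 genes above 0 and 6 below. Its sum was 3754 CPM in Star-positive cells against 3425 CPM in controls. Adamts5, an aggrecan-degrading protease, was at 125 against 199 CPM and with Tcf21 made 2 lower of 12 interstitial progenitor genes, while Dcn was at 369 against 367 CPM and Nr2f2 at 140 against 144 CPM. In the cell cycle exit list 1 of 12 was higher (Gadd45a) and 1 lower (Cdkn2c, an inhibitor of Cdk4 and Cdk6, at 14.5 against 30.9 CPM), and the Cdk inhibitor Cdkn1a was at 561 against 397 CPM. The study's Leydig list (22 genes counted) had 0 past 1.5-fold and a median of 0.18, with 19 genes above 0 and 3 below. Of all genes counted 47.3% were above 0. The study's differentiating Leydig list (34 counted) had 0 higher and 3 lower (Eln, Mfap2 and Adamts5), with 15 genes above 0 and 19 below. Both lists were chosen on these same libraries and are not independent evidence.

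Markers of other cell types were mostly near 0 in both groups. Of 11 macrophage markers 0 averaged 20 CPM, their sum was 10.9 CPM in Star-positive cells and 32.0 in controls, and the most abundant, Lyz2, was at 4.23 and 23.7 CPM. Germ cell markers summed to 20.5 and 21.4 CPM. Of the Sertoli markers Sox9 was at 33.9 and 25.2 CPM while Amh, Dhh and Gata1 had 0 UMIs. Of the endothelial markers Cdh5 was at 116 and 114 CPM and Pecam1 at 1.41 and 2.63. Of the pericyte markers Cspg4 was at 130 and 122 CPM and Rgs5 had 0 and 1 UMI. Adrenal cortex markers summed to 15.2 and 8.65 CPM, with Cyp21a1, Akr1b7 and Mc2r at 0.

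**Figure D3:**
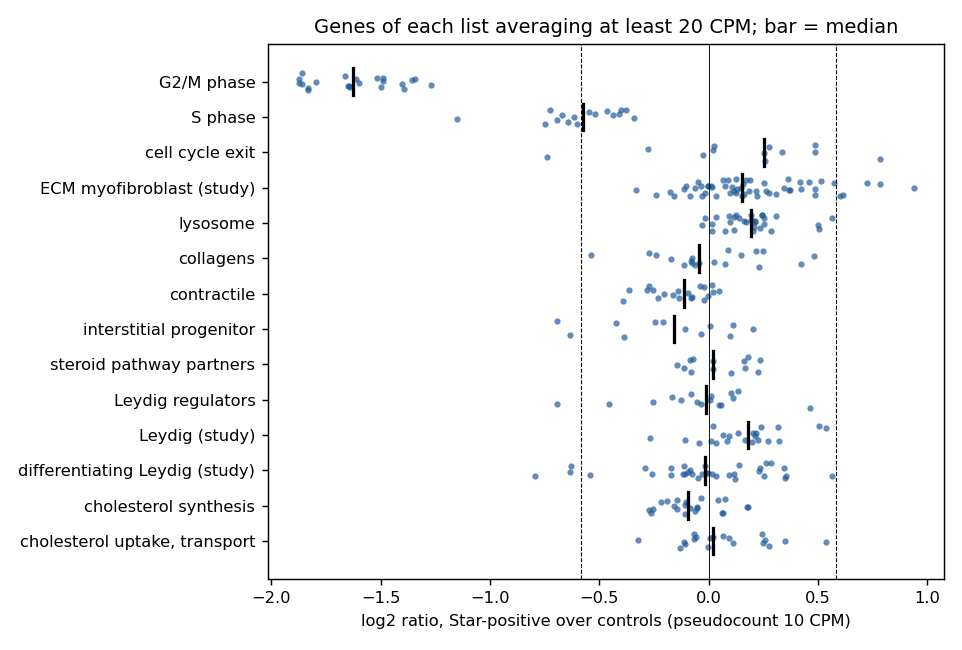
Log2 ratios of Star-positive, enzyme-negative cells over controls (horizontal axis, pseudocount 10 CPM) for the genes of 14 lists averaging at least 20 CPM, 1 point per gene, with vertical bars at the list medians and dashed lines at 1.5-fold. The 22 G2/M genes all lie left of the lower line, while the points of the steroid partner, cholesterol synthesis and contractile lists all lie between the lines.

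As a description, cells of 4000 to 12000 UMIs were also grouped by their Star count, the value that the rule uses. There were 292 cells with 0, 136 with 1, 89 with 2, 87 with 3 to 4 and 100 with 5 or more Star UMIs, with median depths of 6381, 6589, 7124, 7218 and 8185 UMIs. Summed G2/M levels went from 2396 CPM (2329 to 2465) through 1423, 1231 and 585 to 201 CPM (172 to 234). Mki67 went from 195 CPM to 95.7, 79.0, 30.2 and 8.47 CPM (3.41 to 17.5), the last resting on 7 UMIs. Spp1 went the other way, from 4696 CPM (4602 to 4792) through 5571, 5853 and 8517 to 12735 CPM (12493 to 12981). Ccl2 went from 175 CPM to 231, 297, 342 and 565 CPM, and Timp1 from 8433 to 9238, 9966, 12451 and 14940 CPM. Each of these orders ran in 1 direction over all 5 classes, although cells with more Star UMIs were also somewhat deeper. Mki67, Spp1 and Ccl2 had been named for their ratio between cells with 2 or more and with 0 Star UMIs. The G2/M sum and Timp1 were likewise known to differ between those cells. That part of each order was thus set beforehand and is no added evidence. For Spp1 and Timp1 the larger steps lay above 2 Star UMIs, while the G2/M sum and Mki67 were already lower at 1.

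Fdx1, Nr5a1 and Tspo had no such order. Fdx1 was at 77.1, 76.8, 74.5, 76.9 and 84.7 CPM in the same 5 classes, with intervals that all overlap. Nr5a1 was at 18.0, 22.1, 13.4, 13.6 and 20.6 CPM, and Tspo at 467, 450, 455, 467 and 466 CPM. The late steroid list did have one, at a small size: its sum went from 773 CPM (735 to 812) through 827, 842 and 875 to 885 CPM (822 to 951). In the 15 cells of this depth with an enzyme UMI and at least 2 Star UMIs, Fdx1 was at 753 CPM (609 to 922), Nr5a1 at 104 CPM (55.5 to 178) and Acta2 at 224 CPM against 2542 CPM in cells with 5 or more Star UMIs and no enzyme. Those 15 cells also had a G2/M sum of 2628 CPM (2351 to 2929) and 3542 CPM of Spp1, on the side of cells without Star for both. Few of them carried the mitotic UMIs: Mki67 was seen in 20% and Top2a in 13.3% of the 15 cells.

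**Figure D4:**
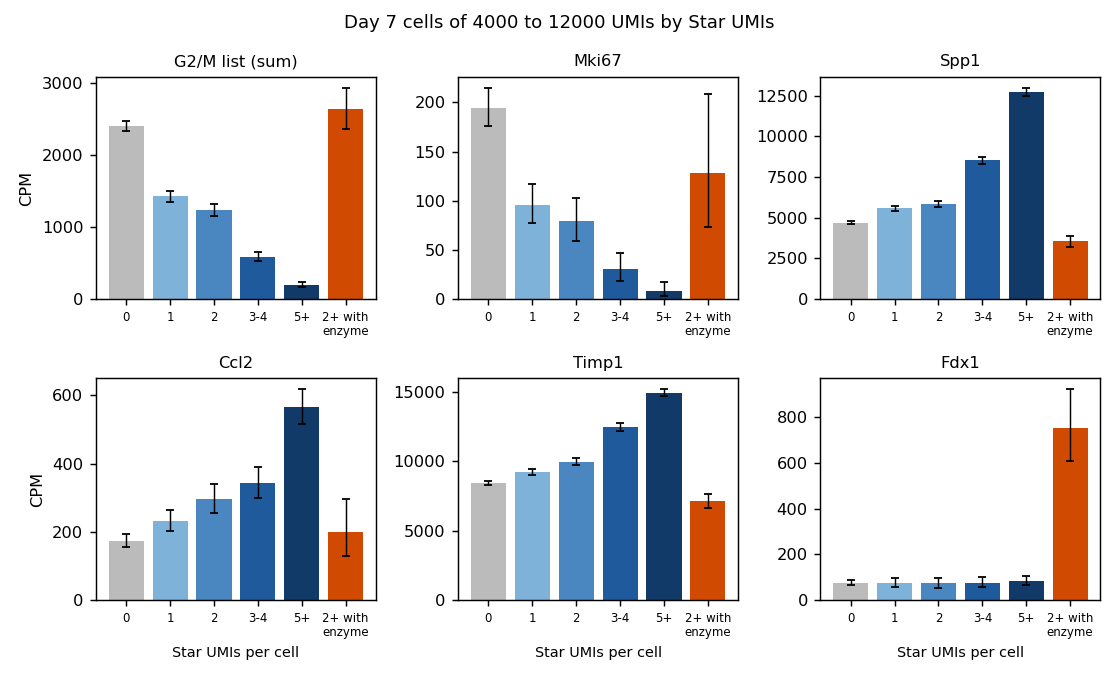
Levels in CPM (vertical axes, from 0) of the G2/M list sum, Mki67, Spp1, Ccl2, Timp1 and Fdx1 in day 7 cells of 4000 to 12000 UMIs, by Star UMIs per cell, with exact Poisson 95% intervals as error bars. The G2/M sum falls from 2396 to 201 CPM and Spp1 climbs from 4696 to 12735 CPM across the 5 classes without an enzyme, while Fdx1 stays between 74.5 and 84.7 CPM and reaches 753 CPM only in the 15 enzyme cells (orange).

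The same measures can be read from the mitotic side. Among day 7 cells without an enzyme, the 311 with 10 or more G2/M UMIs had 166 CPM of Star (149 to 183). The 328 cells with 2 to 9 had 368 CPM (345 to 393), and the 1478 with 0 or 1 had 387 CPM (372 to 402). The intervals of the last 2 classes overlap, so only cells with 10 or more stood apart. Within 4000 to 12000 UMIs, cells with 10 or more G2/M UMIs were at 113 CPM (93.4 to 135, 144 cells). Those with 0 or 1 were at 341 CPM (321 to 362, 439 cells).

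Removing cells with 2 or more G2/M UMIs from both groups left 285 pairs. The 12 highest genes all remained above 0 and 10 of them past 1.5-fold, with Lipg at a ratio of 2.21 (1.88 to 2.60), Ccl2 at 1.99 (1.73 to 2.28), Spp1 at 1.88 (1.83 to 1.93) and Timp1 at 1.52 (1.48 to 1.55). With fewer pairs, 62 of 5991 genes counted were higher (1.03%) and 62 lower (1.03%). Of these, 24 and 21 were past 1.5-fold in the same direction in the 424 pairs as well. Genes of stromal cells were among the lower ones. Id3, a BMP-responsive inhibitor of differentiation (15.0 against 58.3 CPM), and Fmod, a collagen-binding proteoglycan (20.2 against 65.3 CPM), were lower. So was Eln (49.6 against 110 CPM), and all of these were past 1.5-fold lower in the 424 pairs too. Sfrp1, a secreted Wnt antagonist (59.4 against 147 CPM), and Acta2 (2286 against 3572 CPM) were past 1.5-fold lower only in the 285 pairs. These were named after their values were seen.

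The same rule and matching were applied to the other libraries. Day 4, at the end of expansion, had 409 such cells (13.7%, 12.5 to 15.0) and gave 384 pairs. Day 14 had 92 (9.46%) and gave 71 pairs, since 67.9% of its cells held an enzyme UMI. At day 4 the background was 35 of 5974 genes higher (0.586%) and 160 lower (2.68%). At day 14, with small counts, it was 710 of 5943 genes higher (11.9%) and 911 lower (15.3%).

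The 12 lowest genes of day 7 were all past 1.5-fold lower at day 4, where Mki67 was at 81.8 against 204 CPM (ratio 0.401, 0.342 to 0.468). At day 14 their fitted ratios were past it too, but each rested on 18 or fewer UMIs per group, Mki67 on 0 against 6, and for 7 of the 12 the interval of the ratio included 1. Of the G2/M list only 3 genes could be counted there, 1 higher and 2 lower, so day 14 gives no clear value for mitosis. Of the 12 highest genes 11 were above 0 at day 4 and 5 past 1.5-fold, and at day 14 7 were above 0 and 4 past 1.5-fold. Serpinb9b and Nes had 0 UMIs in both groups at day 14 and so no ratio there. Of the 4 past 1.5-fold, Ccl2 had 31 against 3 UMIs, Mmd 11 against 2 and Gadd45a 16 against 9. Spp1 was at 8515 against 4714 CPM at day 4 (ratio 1.81, 1.77 to 1.85) and at 2300 against 741 CPM at day 14 (ratio 3.10, 2.61 to 3.71), where 1 cell held 27.2% of the UMIs. Timp1 was at 10041 against 5189 CPM at day 4 (ratio 1.93, 1.90 to 1.98).

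Some of the 12 highest genes had other values in the other libraries. Ccl2 was near 1 at day 4, at 295 against 288 CPM (826 and 774 UMIs, ratio 1.02). Angptl4 was further apart at day 4, at 89.3 against 26.1 CPM (ratio 3.42, 2.62 to 4.53). Gna14 was below 0 at day 4, with 15.0 against 19.7 CPM. At day 14 Fdx1 was at 248 against 129 CPM (ratio 1.92, 1.22 to 3.08) and Insl3 at 666 against 233 CPM (ratio 2.86, 2.09 to 3.97). Nr5a1 had 16 against 6 UMIs there (interval of the ratio 0.952 to 7.99), and Acta2 14 against 76 UMIs. Differences between libraries were not tested, since each day is 1 library.

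**Figure D5:**
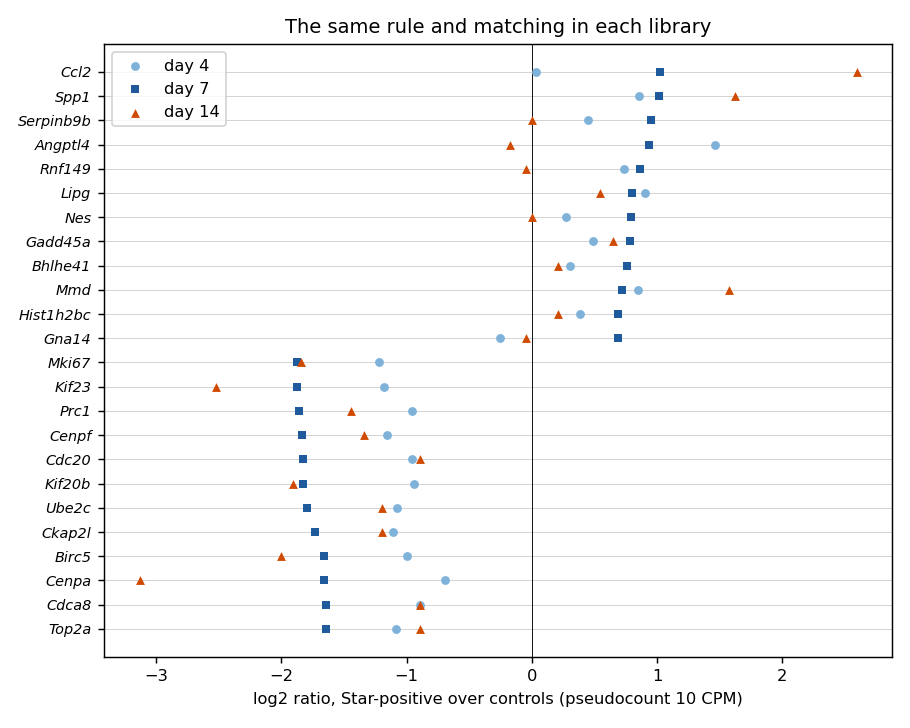
Log2 ratios of Star-positive, enzyme-negative cells over depth-matched controls (horizontal axis, pseudocount 10 CPM) for the 12 highest and 12 lowest genes of day 7, in the libraries of day 4 (384 pairs), day 7 (424 pairs) and day 14 (71 pairs). All 12 mitotic genes lie left of 0 in each library, and the day 14 points rest on few UMIs.

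The day 7 contrast was alike without the barcodes that share their first 11 bases. With them left out, 278 pairs gave 60 genes higher and 162 lower, and with their UMIs summed into 1 cell each, 343 pairs gave 45 and 175. The 12 highest genes stayed past 1.5-fold higher and the 12 lowest past 1.5-fold lower both times. In pairs below and above the median depth (212 each), Spp1 was at ratios of 2.29 (2.20 to 2.38) and 1.93 (1.88 to 1.98), and Mki67 at 0.132 (0.0714 to 0.227) and 0.262 (0.213 to 0.320). Predicted doublets, taken as the 6% of cells with the highest Scrublet scores, were 31 of 424 (7.31%) in each matched group. Without matching on depth they were 51 of 573 Star-positive, enzyme-negative cells (8.90%) and 50 of the 1148 cells without the 4 genes (4.36%).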

How the data were processed

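Counts of UMIs per gene and cell barcode were deposited by the authors, who aligned reads to GRCm38 with STAR and counted them with Drop-seq tools. The submitters' notes list STAR 2.5.2a, Picard 2.6.0 and SAMtools 1.2. The authors had dropped barcodes under 500 genes or above 10% mitochondrial UMIs from the merged table, and 0 of its day 7 entries differed from the day 7 table. Its 495 columns of day 0 cells were not used. Day 7 depth was 594 to 52660 UMIs per cell.

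Summed UMIs per group were scaled to CPM. Intervals are exact at 95%, apart from the approximate limit on the share of cells with Lhcgr, and cover counting error only. The plan of 3 controls per member without reuse would have needed 1719 controls, more than exist, so 1 control within a depth ratio of 1.1 was used. Genes were named as the 12 highest and 12 lowest ratios at 50 CPM or more, without the 4 rule genes and genes where 1 cell held over 10% of UMIs, plus genes of 34 lists, some of which are not reported here. The members and lists were chosen with earlier results of these data known. No doublets were removed in the values reported, except where stated. Matching and ratios were tested on simulated data. Python 3.11.15, numpy 2.4.6, scipy 1.17.1, pandas 2.3.3, scanpy 1.11.5 and matplotlib 3.10.9 were used.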

Additional observations from a re-analysis of the deposited data

Results flagged for a closer look

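Star in day 7 barcodes that failed the cell filter was at 292 CPM, in barcodes that no comparison of groups uses, with 0 UMIs of the 3 enzymes. Gna14 had a log2 ratio of -0.25 at day 4 and of -0.047 at day 14, opposite to 0.69 at day 7. Angptl4 was at -0.18 at day 14 (8 and 9 UMIs) against 0.94 at day 7. Rnf149 was at -0.045 at day 14 (8 UMIs in each group) against 0.86 at day 7. These differences between days were not tested, and each day is 1 library.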

How the results depend on the processing

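Under 19 alternatives the 12 highest genes stayed above 0 each time, and the 12 lowest below 0 in all but the 2 that remove cells with 2 or more G2/M UMIs, which take out the UMIs of those genes by construction. There Kif23 was at log2 0.15, Prc1 at 0.20 and Ube2c at 0.27 (0.15, 0.26 and 0.27 when matched without the cycle genes), the S phase median at 0.0046 and 0.031, and 62 and 57 genes were higher and 62 and 69 lower. In the same runs the contractile median was -0.22 and -0.21, and the lysosome median 0.11 in the second. The number of genes past 1.5-fold depended on the settings. Thinning to 1500 UMIs gave 224 higher and 331 lower, a pseudocount of 1 CPM 94 higher, 50 CPM 10 and 60, no filter on low genes 57 and 251, and a floor of 100 CPM 13 and 22. A rule of at least 1 Star UMI took 969 cells (708 pairs) and gave 21 higher, and one of at least 3 gave 77. With 3 controls without reuse 244 members gave 59 higher (contractile median -0.22), and without barcodes sharing 11 bases 278 gave 60. The G2/M median was -1.18 with at least 1 Star UMI, -2.06 with at least 3 and -1.03 with a pseudocount of 50 CPM. The lysosome median was 0.12 when thinned, 0.11 with at least 1 Star UMI and 0.12 with 50 CPM. Without barcodes sharing 11 bases, the G2/M sum over cells with 5 or more against 0 Star UMIs was at log2 -3.20. The 6 alternatives on reuse, depth limit, barcodes and cycle-free matching were chosen after seeing the data. No paired analysis was possible because each day has 1 library and no result comes from a test. Depth limits the enzymes: a cell with few UMIs can lack them by chance, and 149 deep cells found no control.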
